A study of Mus musculus with 10 samples.

Results

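The Kcnq1ot1 imprinted domain on distal mouse chromosome 7 was described by its DNA methylation in spermatogonia sorted by the surface tetraspanin TSPAN8. Its members were 6 genes: the long noncoding RNA gene Kcnq1ot1, and the protein-coding genes Kcnq1, Cdkn1c, Slc22a18, Phlda2 and Ascl2. Cytosines of CpGs were taken when they lay in a member gene or within 5 kb of it and had at least 5 reads in both libraries, the lowest depth in the deposited table. This gave 1311 cytosines in 889 CpGs of the 6745376 cytosines in 4489220 CpGs of the table. Kcnq1 held 861 of them, Kcnq1ot1 250, Cdkn1c 189, Slc22a18 132, Ascl2 96 and Phlda2 89. All 250 of Kcnq1ot1 also belonged to Kcnq1, because the noncoding RNA gene lies inside it, and 56 were shared by Slc22a18 and Phlda2.

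The cells came from testes of male mouse pups at postnatal day 6 that carried an Id4-eGfp transgene on a C57BL/6 background (LT-11B6 mice). All were positive for the ID4-EGFP reporter, which marks undifferentiated spermatogonia with stem cell potential. Antibody staining then separated TSPAN8-high cells, the most strongly stained, and TSPAN8-low cells, the most weakly stained positive ones. DNA of 5 pooled sorts of each fraction gave 1 library by reduced-representation bisulfite sequencing (RRBS), which reads restriction fragments after unmethylated cytosines have been converted. There were therefore no replicates, and each test below compares 2 libraries and not 2 kinds of cell. Reads over the 1311 cytosines numbered 15969 in TSPAN8-high cells and 15433 in TSPAN8-low cells, where the median cytosine had 10 reads in each library, and 502 cytosines had at least 10 reads in both. The table gives 1 level for each cytosine and does not separate the parental alleles.

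Imprinted genes are expressed from the allele of 1 parent. In this domain the promoter of Kcnq1ot1, inside an intron of Kcnq1, is the imprint control region: it is methylated in the oocyte and stays methylated on the maternal allele in somatic tissues. On the unmethylated paternal allele the noncoding RNA is transcribed, antisense to Kcnq1, and silences neighbouring genes in cis. Primordial germ cells erase this mark, and it is not set again in the male germline.

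The sequence at the Kcnq1ot1 start is shown first because it lies in the control region. It also holds the 2 most methylated cytosines between 1.5 kb inside the transcript and 300 bp upstream of its start, both in TSPAN8-low cells. The upstream sequence of Ascl2, which encodes a basic helix-loop-helix factor of the trophoblast, is shown beside it as the other listed promoter with measured CpGs. Both are RefSeq sequences of GRCm38.p6 (mm10), read 5′ to 3′ on the minus strand, with every CpG in capitals.
Kcnq1ot1, chr7:143296498-143296797: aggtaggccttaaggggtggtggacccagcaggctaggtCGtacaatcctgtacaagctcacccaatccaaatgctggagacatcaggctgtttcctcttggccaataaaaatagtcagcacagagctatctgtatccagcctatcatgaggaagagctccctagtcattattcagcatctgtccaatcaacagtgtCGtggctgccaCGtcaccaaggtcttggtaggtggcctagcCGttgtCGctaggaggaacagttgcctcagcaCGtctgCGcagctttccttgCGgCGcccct
Ascl2, chr7:142969265-142969514: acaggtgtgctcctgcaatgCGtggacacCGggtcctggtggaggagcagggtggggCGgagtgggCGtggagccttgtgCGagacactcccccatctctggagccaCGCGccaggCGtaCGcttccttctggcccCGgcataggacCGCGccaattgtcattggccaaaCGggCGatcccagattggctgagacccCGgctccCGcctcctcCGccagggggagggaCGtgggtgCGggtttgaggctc
The Kcnq1ot1 sequence ran 250 bases upstream and 50 bases downstream of the start, and the Ascl2 sequence ended at the start. RefSeq promoters were listed for 4 of the 6 members, and Kcnq1 and Cdkn1c had none. In its 300 bases Kcnq1ot1 held 9 CpGs, against a median of 7 over 32817 listed promoters. It held CCAAT, counted on both strands, 3 times, and 37.4% of those promoters held it at least 1 time and 3.37% at least 3 times. The letters TGCCGC, which the imprint protector ZFP57 recognises when methylated, did not occur in it on either strand and occurred in 11.6% of promoters. The sequence had no MspI site (CCGG), 4 BfaI sites (CTAG) and 1 MseI site (TTAA), the 3 enzymes of the digest. In 250 bases upstream of their starts Ascl2 held 19 CpGs, Phlda2 held 21 and Slc22a18 held 0, and 7.87% of promoters hold 0 in such a window. No CpG of those 250 bases was measured for Phlda2, while 28 cytosines of Ascl2 were, of which 1 of 449 reads was methylated in TSPAN8-high cells and 0 of 328 in TSPAN8-low cells.

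Methylation in the domain fell into a methylated body with short unmethylated stretches, in both libraries. Levels below 20% were found at 34.9% of its cytosines in TSPAN8-high cells and 35.2% in TSPAN8-low cells, and levels above 80% at 56.5% in each. Over the whole table the cytosines below 20% were 19.3% in each library. Cytosines of the domain averaged 60.7% ± 44.8 in TSPAN8-high cells and 60.4% ± 45.2 in TSPAN8-low cells (SD over cytosines, n = 1311). Runs of at least 5 neighbouring cytosines below 20% in both libraries, with gaps of at most 500 bp, numbered 17 and were 16 to 1647 bp long. They held 437 of the 450 cytosines that were below 20% in both. The levels given below for such stretches are low by this rule. Such stretches lay at the Kcnq1ot1 start, at the CpG-rich end of Kcnq1, over Cdkn1c, over Phlda2, at the start of Ascl2, and at places inside Kcnq1 and Slc22a18 away from the starts used here.

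**Figure D1:**
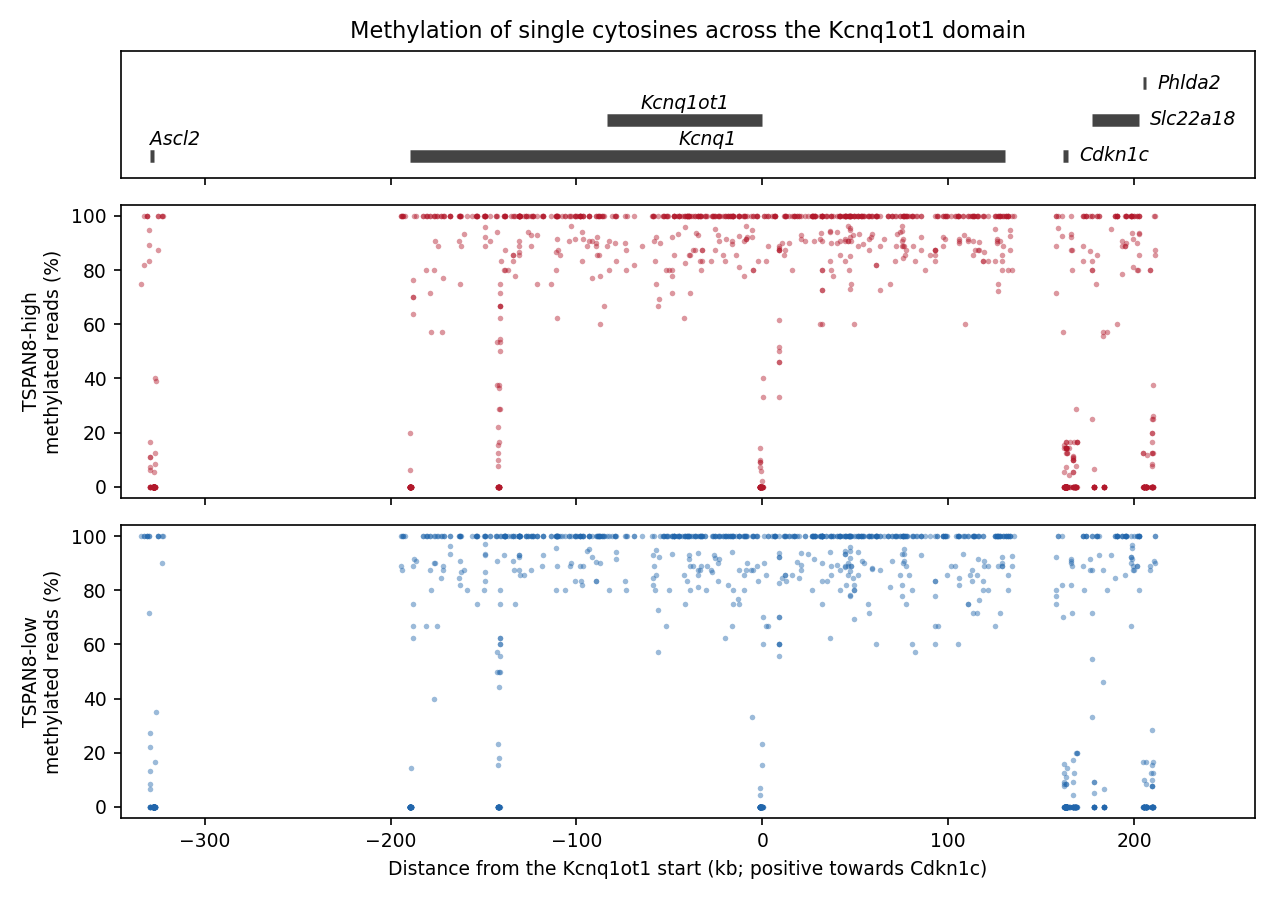
Methylation level (% of reads) of each cytosine of the domain in TSPAN8-high cells (upper points) and TSPAN8-low (lower points) by distance from the Kcnq1ot1 start (kb), under a map of the 6 genes. In both libraries the points drop to 0% at the Kcnq1ot1 start, the start of Kcnq1, Cdkn1c, Phlda2 and Ascl2, and over most of the rest of Kcnq1 they lie above 80%, apart from a low stretch before Kcnq1ot1.

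The first comparison asked whether the control region at the start of Kcnq1ot1 (gene 63830, lncRNA, chromosome 7, 143213111 to 143296547, minus strand) carried methylation in either fraction. It was almost unmethylated in both. In 54 cytosines of 32 CpGs, from 1.5 kb inside the transcript to 300 bp upstream of its start, bounds that were set with the levels known, 8 of 875 reads were methylated in TSPAN8-high cells (0.914%, exact 95% interval 0.396 to 1.79) and 12 of 869 in TSPAN8-low cells (1.38%, 0.716 to 2.40). Of these cytosines 47 had no methylated read in TSPAN8-high cells and 50 had none in TSPAN8-low cells. These intervals, and all below, cover counting error only, since each fraction gave 1 library. Sequencing reads are also not independent molecules, and a read counts at each CpG it covers, which makes the intervals too narrow. The unmethylated stretch ended on both sides in measured CpGs. Cytosines 2 to 3 kb upstream of the start were 88.9% to 91.7% methylated in TSPAN8-high cells and 76.9% to 100% in TSPAN8-low cells, by bins of 500 bp. Those 2 to 3 kb into the transcript were 83.3% to 100% methylated in TSPAN8-high cells and 83.3% to 95.8% in TSPAN8-low cells. These bins were thin, with 1 and 2 cytosines upstream and 1 and 3 inside the transcript. No cytosine was measured from 1 to 2 kb upstream or from 1.5 to 2 kb inside.

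In the window of 1 kb either side of the start, 17 of 572 reads were methylated in TSPAN8-high cells (2.97%, exact 95% interval 1.74 to 4.72) and 41 of 495 in TSPAN8-low cells (8.28%, 6.01 to 11.1), over 20 CpGs. The pooled share was lower in TSPAN8-high cells (-5.31 percentage points, high minus low, 95% Newcombe interval -8.29 to -2.57, Fisher's exact test, adjusted p = 0.0139 over 28174 start windows). The difference was below the 10 percentage points set for a call, and 11.9% of all start windows differed by as much. A read counts at each CpG it covers, which makes the p-values of pooled reads too small. The difference was -12.5 percentage points with 1 CpG per 100 bp (Fisher's exact test, adjusted p = 0.0352) and -10.9 on the minus strand alone (adjusted p = 0.0191), both past the size of a call. It was -2.34 as an unweighted mean over cytosines, -2.01 with at least 10 reads per cytosine (Fisher's exact test, adjusted p = 0.169), and -5.27 with read numbers halved (adjusted p = 0.705).

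Most methylated reads of this window lay in 2 places. The first was a pair of CpGs between 143297183 and 143297295, more than 300 bp upstream, where the 4 cytosines held 15 methylated reads of 22 in TSPAN8-high cells (68.2%) and 31 of 39 in TSPAN8-low cells (79.5%). These cytosines lie outside the 54 counted above. They made up 22 of the 572 pooled reads in TSPAN8-high cells and 39 of the 495 in TSPAN8-low cells. The pooled difference of the window therefore also depends on this unequal coverage of cytosines that were methylated in both libraries. The settings of 1 CpG per 100 bp and of the minus strand kept cytosines of this pair of CpGs. That of at least 10 reads left the pair out. The second was a pair of cytosines on the minus strand, 42 and 53 bp upstream of the start, which are the CpGs at letters 209 and 198 of the sequence above. At 42 bp upstream, 0 of 36 reads were methylated in TSPAN8-high cells and 4 of 26 in TSPAN8-low cells (15.4%, two-sided Fisher's exact test, p = 0.0268, adjusted p = 1 over all cytosines). At 53 bp upstream, 0 of 36 were methylated in TSPAN8-high cells and 6 of 26 in TSPAN8-low cells (23.1%, two-sided Fisher's exact test, p = 0.00375, adjusted p = 1), the smallest unadjusted p of the domain. The plus strand of the same 2 CpGs held 1 methylated read of 47 and 0 of 48 in TSPAN8-high cells, and 0 of 30 and 0 of 30 in TSPAN8-low cells. The difference near the start was therefore seen on the minus strand and not on the plus strand. Within 1 kb downstream of the start, 23 cytosines held 1 methylated read of 361 in TSPAN8-high cells and 0 of 333 in TSPAN8-low cells, which allows a share of up to 0.901%.

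**Figure D2:**
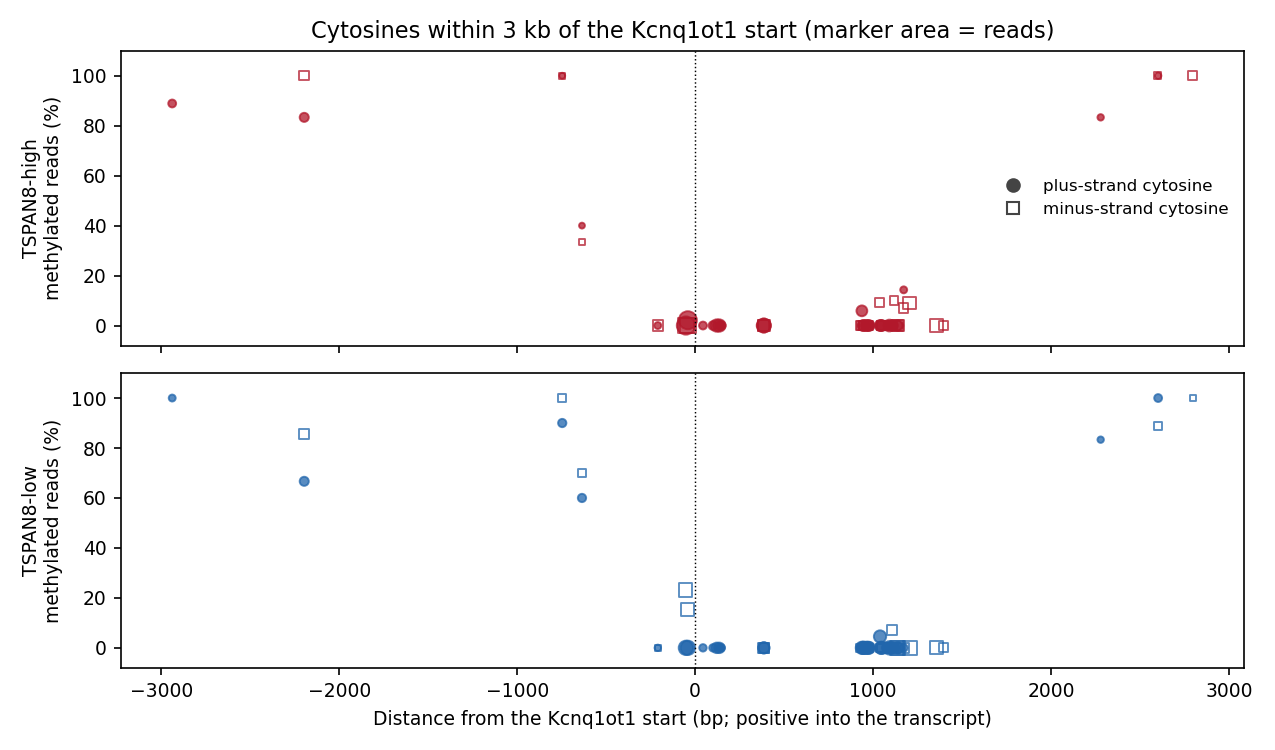
Methylation level (%) of each cytosine within 3 kb of the Kcnq1ot1 start in TSPAN8-high cells (upper panel) and TSPAN8-low (lower panel), with circles for the plus strand, open squares for the minus strand and marker area by reads. Between 300 bp upstream and 1.5 kb inside, TSPAN8-high reaches at most 14.3%, and the highest points of TSPAN8-low are 2 minus-strand cytosines at 15.4% and 23.1%.

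Kcnq1 (gene 16535, chromosome 7, 143106877 to 143427050), which encodes the pore subunit of a voltage-gated potassium channel, was unmethylated at its start and methylated along its body. The start, taken as the end with more listed CpGs because no promoter was listed, lies 189.67 kb from that of Kcnq1ot1. Its window held 38 CpGs with 2 methylated reads of 465 in TSPAN8-high cells (0.430%) and 1 of 504 in TSPAN8-low cells (0.198%), a difference of 0.232 percentage points (95% Newcombe interval -0.737 to 1.37, Fisher's exact test, adjusted p = 0.938). Beyond 2 kb from the start and up to Kcnq1ot1, 241 cytosines averaged 81.8% ± 31.8 in TSPAN8-high cells and 82.4% ± 32.4 in TSPAN8-low cells (SD over cytosines). Where the noncoding RNA gene overlaps Kcnq1, beyond 2 kb of the RNA's start, 173 cytosines averaged 94.7% ± 8.25 in TSPAN8-high cells and 94.4% ± 9.90 in TSPAN8-low cells. Past the control region, 322 cytosines up to the far end of Kcnq1 averaged 94.0% ± 10.2 in TSPAN8-high cells and 93.4% ± 10.4 in TSPAN8-low cells.

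Before the noncoding RNA gene, Kcnq1 held a further unmethylated stretch at chromosome 7, 143154269 to 143154956, 47392 bp from its start. Its 14 CpGs had 5 methylated reads of 175 in TSPAN8-high cells (2.86%) and 0 of 217 in TSPAN8-low cells. The stretch takes in only cytosines below 20% in both libraries, so these counts depend on that rule. The whole tile around it, 143154001 to 143155000, held 7 methylated reads of 223 in TSPAN8-high cells (3.14%) and 5 of 288 in TSPAN8-low cells (1.74%). The next tile, 143155001 to 143156000, was at intermediate levels in both libraries, 52.6% in TSPAN8-high cells (exact 95% interval 43.9 to 61.1) and 58.3% in TSPAN8-low cells (49.0 to 67.3), over 11 CpGs. It was 1 of 6 tiles of the domain that lay between 20% and 80% in both libraries, of 105 tiles in all.

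Cdkn1c (gene 12577, chromosome 7, 143458339 to 143461059) encodes the cyclin-dependent kinase inhibitor p57, and is silenced on the paternal allele in somatic tissues. The gene itself was unmethylated: over 130 cytosines of 80 CpGs, 24 of 1481 reads were methylated in TSPAN8-high cells (1.62%) and 20 of 1467 in TSPAN8-low cells (1.36%). Its longest unmethylated stretch, 143458727 to 143460373, covered 79 CpGs at 1.36% in TSPAN8-high cells and 0.892% in TSPAN8-low cells. Around its CpG-rich end, 17 of 581 reads were methylated in TSPAN8-high cells (2.93%) and 3 of 543 in TSPAN8-low cells (0.552%), a difference of 2.37 percentage points (95% Newcombe interval 0.853 to 4.12, Fisher's exact test, adjusted p = 0.0637). On the minus strand alone the same window stood at 0.336% in TSPAN8-high cells and 0.373% in TSPAN8-low cells. Plus-strand cytosines from 143460075 to 143460137 each held 1 methylated read of 7 in TSPAN8-high cells and 0 of 6 in TSPAN8-low cells. Whether this was the same read counted at each CpG was not tested. No cytosine was measured within 500 bp of the end used as the start. The region up to 5 kb upstream was patchy. A group of 6 cytosines 1.5 to 2 kb upstream was 91.0% methylated in TSPAN8-high cells and 85.1% in TSPAN8-low cells, and 4 further unmethylated stretches lay in the 5 kb beside and beyond it. Past the other end of Cdkn1c, 131 of 138 reads were methylated in TSPAN8-high cells and 85 of 95 in TSPAN8-low cells.

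Slc22a18 (gene 18400, chromosome 7, 143473726 to 143499334, plus strand), which encodes a transporter of the organic cation family, was methylated at its listed start in both libraries. The window held only 3 CpGs, all downstream, below the 5 needed for a test. In it 33 of 43 reads were methylated in TSPAN8-high cells (76.7%, exact 95% interval 61.4 to 88.2) and 40 of 54 in TSPAN8-low cells (74.1%, 60.3 to 85.0). An unmethylated stretch of 7 CpGs lay 1231 bp inside the gene, at 143475020 to 143475228, with 1 methylated read of 139 in TSPAN8-high cells and 3 of 147 in TSPAN8-low cells. A second one, at 143480449 to 143480521, had 0 of 105 in TSPAN8-high cells and 1 of 90 in TSPAN8-low cells. Across the gene, 76 cytosines averaged 67.1% ± 42.2 in TSPAN8-high cells and 68.3% ± 42.0 in TSPAN8-low cells (SD over cytosines).

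Phlda2 (gene 22113, chromosome 7, 143501545 to 143503145, minus strand), a pleckstrin homology domain gene that restrains placental growth, was unmethylated at its measured cytosines. None was measured between 403 bp inside and 317 bp upstream of its listed start. None of 517 reads over its 35 cytosines was methylated in TSPAN8-high cells, which allows a share of up to 0.580%, and 4 of 521 were in TSPAN8-low cells (0.768%). In its start window, with 25 CpGs, 0 of 559 reads were methylated in TSPAN8-high cells and 4 of 559 in TSPAN8-low cells, a difference of -0.716 percentage points (95% Newcombe interval -1.83 to 0.0948, Fisher's exact test, adjusted p = 0.485). Its flanks differed from each other in both libraries. The 5 kb downstream, towards Slc22a18, held 156 methylated reads of 202 in TSPAN8-high cells (77.2%) and 173 of 215 in TSPAN8-low cells (80.5%). The 5 kb upstream held 70 of 410 in TSPAN8-high cells (17.1%) and 71 of 387 in TSPAN8-low cells (18.3%). In that upstream part the CpG at 143506392, chosen after its values were seen, had 0 methylated reads of 40 in TSPAN8-high cells and 8 of 40 in TSPAN8-low cells with both strands summed (two-sided Fisher's exact test, p = 0.00531, adjusted p = 1).

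Ascl2 (gene 17173, chromosome 7, 142966822 to 142969264, minus strand) lies 327.283 kb from the Kcnq1ot1 start, on the other side of Kcnq1 from Cdkn1c. Its unmethylated stretch, 142968399 to 142969950, was 1552 bp long with 48 CpGs, and held 3 methylated reads of 1051 in TSPAN8-high cells and 0 of 866 in TSPAN8-low cells. In the start window of 49 CpGs, 14 of 1079 reads were methylated in TSPAN8-high cells (1.30%) and 8 of 892 in TSPAN8-low cells (0.897%), a difference of 0.401 percentage points (95% Newcombe interval -0.608 to 1.38, Fisher's exact test, adjusted p = 0.879). Beyond its other end, in the 500 bp from 2.5 kb after the start, 80 of 88 reads were methylated in TSPAN8-high cells and 65 of 67 in TSPAN8-low cells.

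**Figure D3:**
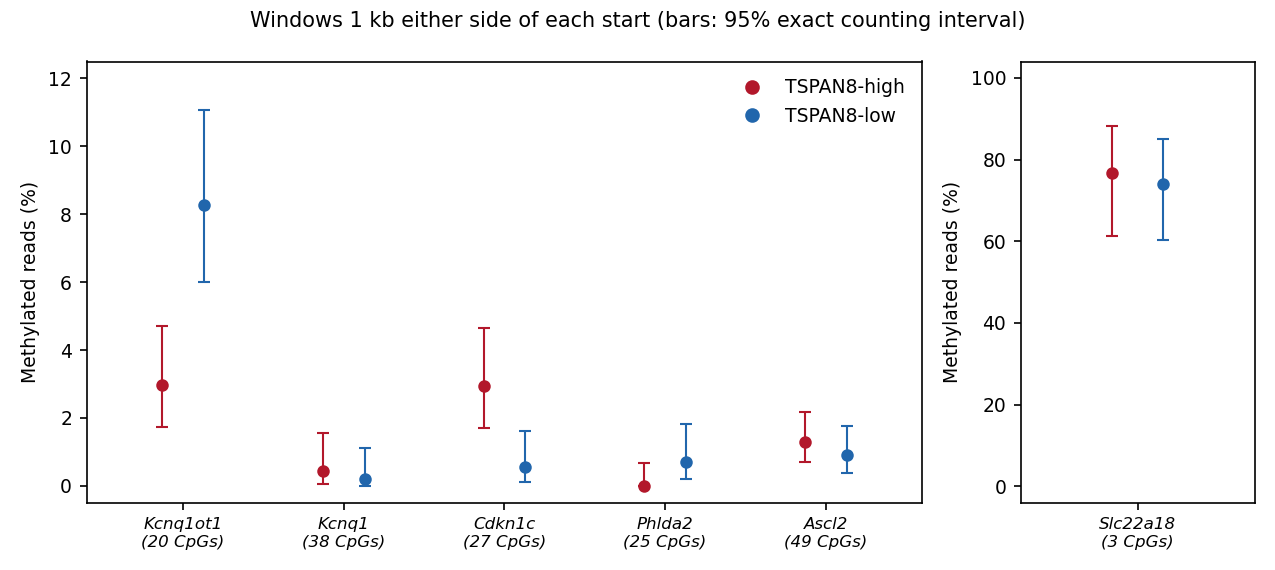
Share of methylated reads (%) in the window 1 kb either side of each member's start, TSPAN8-high left of TSPAN8-low, with exact 95% counting intervals; Slc22a18 has its own scale. The intervals of the 2 libraries do not overlap for Kcnq1ot1 and Cdkn1c, and Slc22a18 is methylated in both. The window of Cdkn1c has no measured cytosine within 500 bp of its start. That of Phlda2 has none between 403 bp inside and 317 bp upstream of its start.

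Across the members, 0 of 5 start windows met the rule for a call, an adjusted p under 0.05 together with 10 percentage points or more, which 0.855% of 28174 start windows met (241 windows). At any difference, 1 of the 5, that of Kcnq1ot1, had an adjusted p below 0.05 by Fisher's exact test, as did 3.4% of all windows. The middle 95% of all windows differed by -9.06 to 8.48 percentage points, and all 5 members lay within it. In order of level, TSPAN8-high had Kcnq1ot1 (2.97%), Cdkn1c (2.93%), Ascl2 (1.30%), Kcnq1 (0.430%) and Phlda2 (0%), with overlapping intervals between neighbours. TSPAN8-low had Kcnq1ot1 (8.28%), Ascl2 (0.897%), Phlda2 (0.716%), Cdkn1c (0.552%) and Kcnq1 (0.198%), and there the interval of Kcnq1ot1 lay above all others. The place of Kcnq1ot1 in both orders rests largely on the 4 methylated cytosines more than 300 bp upstream of its start. They held 15 of its 17 methylated reads in TSPAN8-high cells and 31 of 41 in TSPAN8-low cells.

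**Figure D4:**
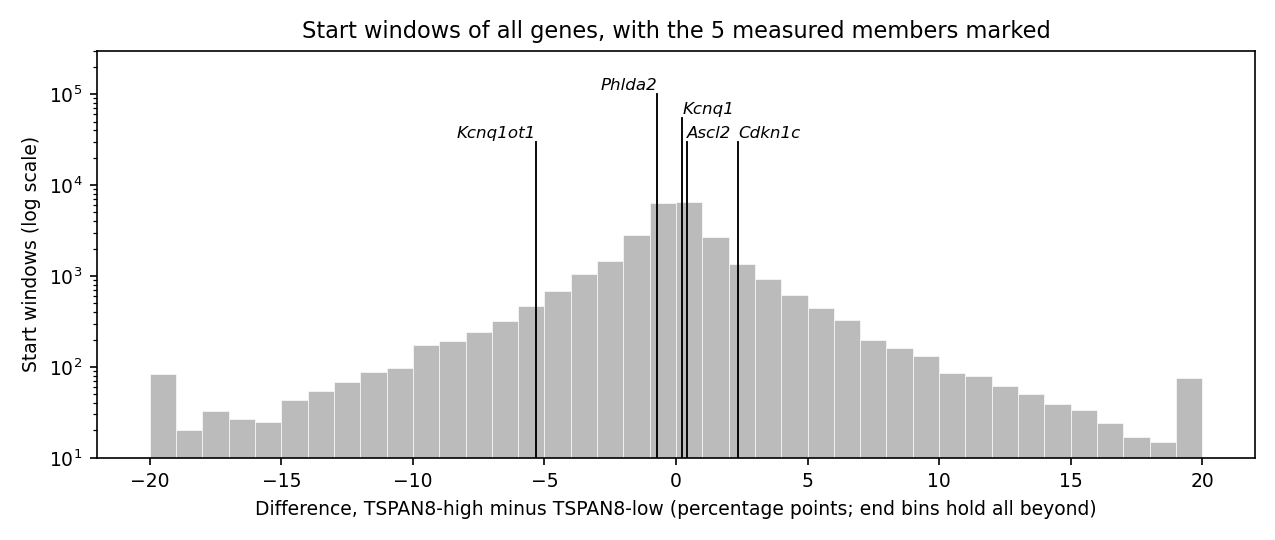
Number of start windows (log axis) by difference in methylation, TSPAN8-high minus TSPAN8-low (percentage points), over 28174 genes, with lines at the 5 tested members. Kcnq1ot1 at -5.31 lies farthest from 0 among the members, and all 5 lie inside the middle 95% of genes, -9.06 to 8.48.

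Over whole gene spans with 5 kb on either side, none of the 6 members met the rule, which 1.14% of 46461 spans met. The span of Cdkn1c stood at 10.6% in TSPAN8-high cells and 7.74% in TSPAN8-low cells, a difference of 2.88 percentage points (95% Newcombe interval 1.19 to 4.56, Fisher's exact test, adjusted p = 0.0124). It was the only member span with an adjusted p below 0.05 by Fisher's exact test at any difference, against 11.5% of all spans. The 8 methylated cytosines past the other end of Cdkn1c made up 138 of the 2289 pooled reads in TSPAN8-high cells and 95 of the 2235 in TSPAN8-low cells. The pooled difference of the span therefore also depends on this unequal coverage. As an unweighted mean over cytosines it was 1.56. Without the flanks the difference was 0.257 percentage points (Fisher's exact test, adjusted p = 0.864). The adjusted p of Fisher's exact test for this span was also above 0.05 on the plus strand alone (difference 1.94, adjusted p = 0.383), at 20 or more reads (2.42, 0.561), with 1 CpG per 100 bp (5.71, 0.0743) and with read numbers halved (2.97, 0.264). The spans of Kcnq1 (79.1% in TSPAN8-high cells, 78.1% in TSPAN8-low cells), Kcnq1ot1 (68.1% in TSPAN8-high cells, 67.7% in TSPAN8-low cells), Slc22a18 (47.0% in TSPAN8-high cells, 46.7% in TSPAN8-low cells) and Ascl2 (15.3% in TSPAN8-high cells, 14.7% in TSPAN8-low cells) were each higher in TSPAN8-high cells by less than 1 percentage point. That of Phlda2 was 20.02% in TSPAN8-high cells and 22.1% in TSPAN8-low cells, a difference of -2.07 percentage points (95% Newcombe interval -5.43 to 1.30, Fisher's exact test, adjusted p = 0.514).

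At single cytosines, 0 of 1311 passed the rule for cytosines, an adjusted p under 0.05 together with 20 percentage points or more, which 0.00111% of all cytosines did (75 of 6745376). An unadjusted p below 0.05 by Fisher's exact test was found at 13 cytosines of the domain (0.992%), against 1.46% of the table. Levels were equal in both libraries at 721 cytosines, higher in TSPAN8-high cells at 309 and lower at 281. With at least 10 reads in both, the largest differences lay in Kcnq1 and Slc22a18, and each had an adjusted p of 1 by Fisher's exact test. Higher in TSPAN8-high cells were 143390845 (20 of 20 reads in TSPAN8-high cells, 8 of 12 in TSPAN8-low cells), 143244550 (10 of 10 in TSPAN8-high cells, 8 of 12 in TSPAN8-low cells) and 143345630 (12 of 12 in TSPAN8-high cells, 9 of 13 in TSPAN8-low cells), all in Kcnq1. Of these, 143244550 also lies in Kcnq1ot1. Lower in TSPAN8-high cells were 143209019 in Kcnq1 (6 of 10 in TSPAN8-high cells, 12 of 12 in TSPAN8-low cells), 143254524 in Kcnq1 and Kcnq1ot1 (10 of 16 in TSPAN8-high cells, 12 of 12 in TSPAN8-low cells), and 143487330 in Slc22a18 (6 of 10 in TSPAN8-high cells, 18 of 18 in TSPAN8-low cells).

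In 1-kb tiles with at least 3 CpGs, 0 of 105 were called, against 0.268% of 585220 tiles. Both libraries were below 20% in 20 of the tiles and above 80% in 77. An unadjusted p under 0.05 by Fisher's exact test was found in 12 tiles (11.4%), against 8.6% of all tiles. The tile of the Kcnq1ot1 start, 143296001 to 143297000, had the smallest adjusted p of the domain, 0.108 by Fisher's exact test, at 0.270% in TSPAN8-high cells and 3.92% in TSPAN8-low cells. A tile of Kcnq1 on its upstream side, 143305001 to 143306000, had the next smallest, 0.190 by Fisher's exact test, at 61.7% in TSPAN8-high cells (exact 95% interval 53.4 to 69.6) and 77.8% in TSPAN8-low cells (70.4 to 84.1).

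The start window of Kcnq1ot1 was then set beside windows at other imprinted genes in the same libraries. Maternal marks are known to be absent from male germ cells and paternal marks present. Of 17 genes linked to a maternally methylated region, 16 were measured at the start used. All 16 stood below 20% in both libraries, at 0.290% to 13.9% in TSPAN8-high cells and 0.306% to 13.5% in TSPAN8-low cells. Whether each window covers the methylated region was not tested, for example at Inpp5f and Grb10. A low level there does not by itself show that the mark is absent. Of all 28174 start windows, 62.8% stood below 20% in both. Snrpn and Snurf have the same start, so the same window was counted for each. Slc38a4 had the highest level in both libraries. The windows nearest in level to the Kcnq1ot1 start window over the 2 libraries were those of H19 (4.50% in TSPAN8-high cells, 5.68% in TSPAN8-low cells), Airn (5.44% in TSPAN8-high cells, 6.09% in TSPAN8-low cells) and Nap1l5 (1.79% in TSPAN8-high cells, 4.79% in TSPAN8-low cells). That start window takes in the 4 methylated cytosines more than 300 bp upstream of the start. The narrower stretch around the start, at 0.914% in TSPAN8-high cells and 1.38% in TSPAN8-low cells, was not matched to other windows. Paternally methylated regions upstream of their genes were methylated: 98.4% in TSPAN8-high cells and 97.1% in TSPAN8-low cells at 1 to 5 kb upstream of H19, and 95.4% in TSPAN8-high cells and 97.2% in TSPAN8-low cells at 10 to 16 kb upstream of Meg3. At 25 to 35 kb upstream of Rasgrf1 the levels were 80.9% in TSPAN8-high cells and 77.9% in TSPAN8-low cells. Cytosines of the whole table averaged 74.3% in TSPAN8-high cells and 74.4% in TSPAN8-low cells. Levels above 80% were found at 68.9% of them in TSPAN8-high cells and 69.4% in TSPAN8-low cells, so high levels are common in the table. As a check of the cell type, the starts of germline genes that somatic cells methylate, Dazl and Ddx4 among them, were below 20% in both libraries at all 9 measured genes of 10, against the same 62.8% of all start windows. The part of other cell types in any of these levels was not tested.

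**Figure D5:**
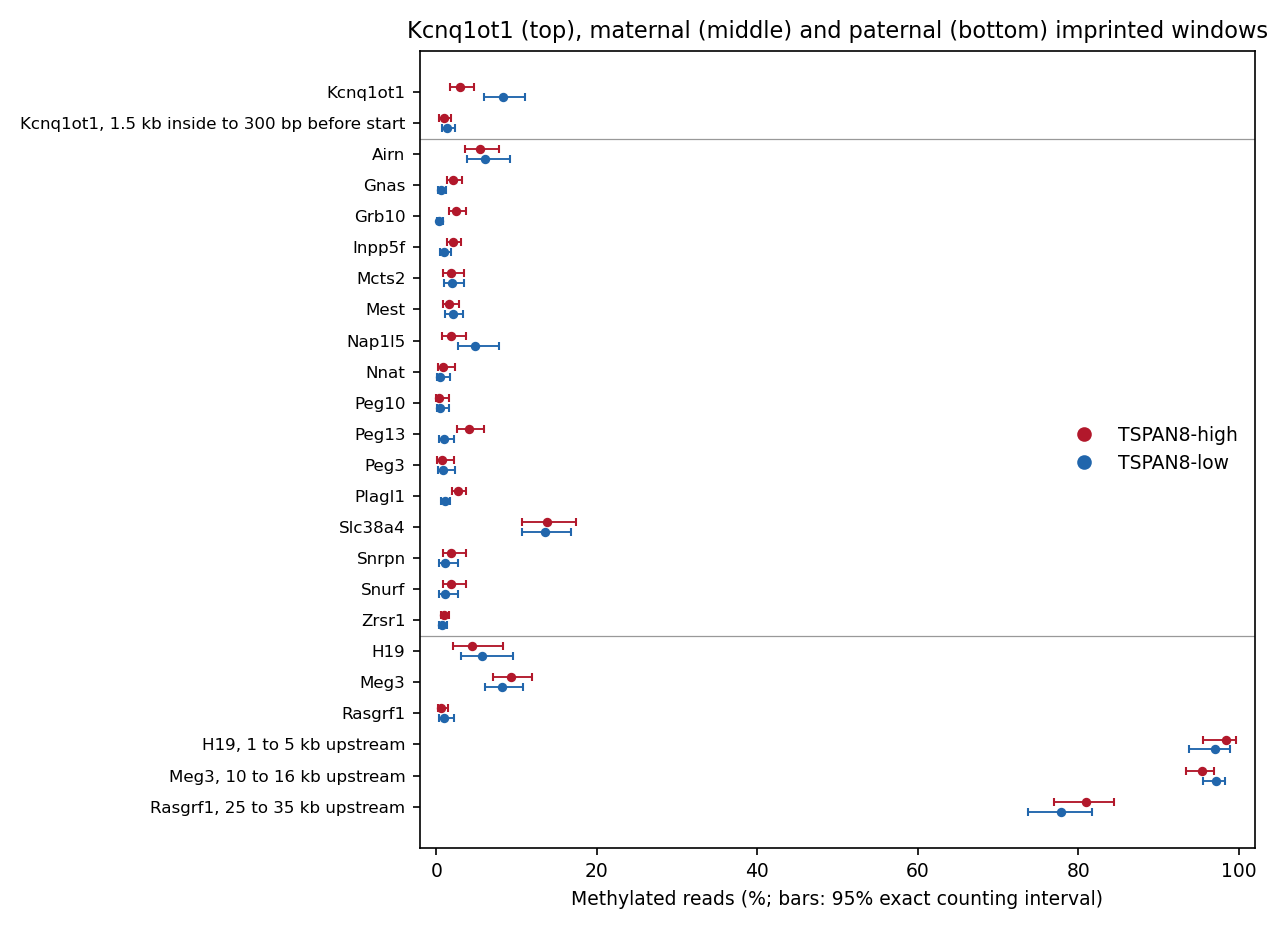
Share of methylated reads (%) with exact 95% counting intervals at Kcnq1ot1 (top), at the starts of maternally methylated imprinted genes (middle) and at paternally imprinted genes with their upstream regions (bottom), TSPAN8-high above TSPAN8-low in each row. All start windows lie below 20%, and the upstream regions of H19, Meg3 and Rasgrf1 lie at 77.9% to 98.4%.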

How the data were processed

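DNA methylation was measured by RRBS in 1 library of TSPAN8-high and 1 of TSPAN8-low ID4-EGFP+ spermatogonia, each from 300 ng of DNA of 5 pooled sorts cut with BfaI, MseI and MspI and read as pairs of 50 bp, per the labels' protocols. The 8 chromatin samples were not used here. The authors deposited 1 table with a line for each cytosine of a CpG on each strand. Its methylation level is a fraction, and its coverage is a read count of at least 5 in both libraries, as deposited by the authors. The deposited p-value compares the libraries by a test that is not given in the sources used here, and the deposited difference column is high minus low. The submitters' processing notes name mm10, mm9, Bowtie and SICER with no role. In 99.7% of 15102 cases a cytosine listed within a chromosome 7 promoter stood at a CpG of GRCm38.p6 (mm10), whose coordinates were used.

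Methylated reads were taken as level times coverage, rounded. Starts came from RefSeq promoters or, for Kcnq1 and Cdkn1c, from the gene end with more listed CpGs, and distances run from there into the gene. The strand of these 2 genes was not used. Reads were pooled in start windows (1 kb either side, at least 5 CpGs), gene spans (with 5 kb flanks), 1-kb tiles (at least 3 CpGs) and single cytosines. The libraries were tested against each other on these reads with two-sided Fisher's exact tests and Benjamini-Hochberg adjustment over all features of a kind in the whole table. Calls needed an adjusted p below 0.05 with at least 10 percentage points, or 20 at single cytosines. Levels have exact Clopper-Pearson and differences Newcombe intervals at 95%, and a share of 0 allows up to 3 counts of the total. Read numbers were even at 59.4% of all cytosines in the TSPAN8-high library and 59.5% in the TSPAN8-low library. Whether both mates of a pair were counted is not given in the sources used here, and if they were, the intervals are too narrow and the p-values too small. The members, gene lists and tests were chosen with earlier results of these data known. Named were the 6 members, every called cytosine and tile, the 3 cytosines with the largest difference in each direction at 10 or more reads, and the 3 imprinted windows nearest in level to the Kcnq1ot1 start window. Alternatives were at least 10 or 20 reads, windows of 500 bp or 2 kb, no flanks, unweighted means, 1 CpG per 100 bp, single strands, no cytosines above the 99.9th percentile of reads, and halved read numbers. The tests were tried on simulated data. Python 3.11.15, numpy 2.4.6, pandas 2.3.3, scipy 1.17.1, numba 0.67.0 and matplotlib 3.10.9 were used.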

Additional observations from a re-analysis of the deposited data

How the results depend on the processing

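Differences are TSPAN8-high minus TSPAN8-low in percentage points. The difference at the Kcnq1ot1 start was negative in all 9 alternatives run. Its main value of -5.31 became -12.5 with 1 CpG per 100 bp (Fisher's exact test, adjusted p = 0.0352) and -10.9 on the minus strand alone (adjusted p = 0.0191), both then past the 10 points of the call, and -2.34 as an unweighted mean. It was -2.01 at 10 or more reads, -2.20 on the plus strand and -2.17 at 2 kb, where the adjusted p was above 0.05. Halving the read numbers, chosen after seeing the data, left -5.27. Both settings past the 10 points kept cytosines of the methylated pair of CpGs more than 300 bp upstream. That pair had 22 reads in TSPAN8-high cells and 39 in TSPAN8-low cells. With 500 bp either side the difference was -3.65 (Fisher's exact test, adjusted p = 0.0333). That setting and the one of 10 or more reads left the pair out. The cause of these changes was not tested. The Cdkn1c span stayed positive, at 0.257 to 5.71, with an adjusted p above 0.05 in 5 alternatives. Further differences changed sign, all of them below the call under either setting. For gene spans this held at 10 or more reads (Slc22a18 -4.44, Ascl2 -0.547), at 20 or more (Slc22a18 -5.67, Kcnq1 -3.54, Ascl2 -0.784, Kcnq1ot1 -0.280), with 1 CpG per 100 bp (Kcnq1ot1 -1.28, Slc22a18 -1.26, Kcnq1 -0.00619), on the minus strand (Slc22a18 -2.52, Kcnq1ot1 -0.508, Kcnq1 -0.276, Ascl2 -0.179), on the plus strand (Phlda2 3.86), without flanks (Ascl2 -0.864, Slc22a18 -0.392) and as unweighted means (Slc22a18 -0.919, Phlda2 0.493, Ascl2 -0.223, Kcnq1ot1 -0.141). For start windows it held on the minus strand (Cdkn1c -0.0376, Kcnq1 -0.0102) and at 2 kb (Ascl2 -0.592). The number of called cytosines and tiles was 0 under every alternative run, and low stretches numbered 20 at a limit of 10%. The windows of Kcnq1ot1, Kcnq1 and Cdkn1c at 20 or more reads, and of Cdkn1c at 500 bp, had too few CpGs. No paired analysis was possible because each fraction gave 1 library. At a median of 10 reads, 1 read moves the level of a cytosine by about 10 percentage points.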

Other observations

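Other genes of the distal chromosome 7 cluster, listed by position, had start windows of 2 kinds in both libraries. Of 15 genes 14 were measured, and 0 of these were called. Over all 28174 start windows, 62.8% were below 20% in both libraries and 24.5% above 80% in both, shares near those of the neighbours (71.4% and 28.6%). Below 20% in both libraries were 10 of them, among them Igf2, the insulin-like growth factor gene (0.870% in TSPAN8-high cells, 0.709% in TSPAN8-low cells), Cd81, a tetraspanin gene (1.34% in TSPAN8-high cells, 0.330% in TSPAN8-low cells), and Nap1l4, a nucleosome assembly protein gene (7.09% in TSPAN8-high cells, 8.06% in TSPAN8-low cells). Above 80% in both were the other 4: Ins2, which encodes insulin (95.9% in TSPAN8-high cells, 94.0% in TSPAN8-low cells), the tetraspanin gene Tspan32 (96.8% in TSPAN8-high cells, 90.3% in TSPAN8-low cells), the cation channel gene Trpm5 (96.4% in TSPAN8-high cells, 94.6% in TSPAN8-low cells) and the TNF receptor family gene Tnfrsf26 (93.6% in TSPAN8-high cells, 86.7% in TSPAN8-low cells).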
